A study of Mus musculus with 6 samples.

Results

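The Hippo pathway genes described here were 10 genes looked up by symbol in a table of 21269 mouse genes: the coactivators Yap1 and Wwtr1, the DNA-binding factors Tead1 and Tead3, the kinases Lats1 and Lats2, the cofactor Vgll4, and the target genes Ankrd1, Ccn1 and Ccn2. All 10 were in the table, and all 10 were among the 15650 genes tested, whose normalized counts averaged at least 5. RNA sequencing had been done on HL-1 cells, a contractile mouse line derived from atrial cardiomyocytes. The cells received, at 50 nM, either a locked nucleic acid gapmer against the long noncoding RNA Malat1 (LNA Malat1) or a control gapmer (LNA Control), and were collected 48 hours later. A gapmer is a short modified oligonucleotide that directs RNase H to the RNA it pairs with. Each group had 3 libraries, and both groups shared the same line, culture medium and transfection reagent. As both groups received an oligonucleotide and differ in its sequence, an effect of the gapmer against Malat1 other than through its target cannot be told apart from an effect of losing Malat1.

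The Hippo pathway is a kinase cascade that restrains the paralogous coactivators YAP and TAZ, the products of Yap1 and Wwtr1. LATS kinases, working with MOB1 proteins, phosphorylate YAP and TAZ, which holds them in the cytoplasm and marks them for degradation. When phosphorylation is low, YAP and TAZ enter the nucleus, bind TEAD factors and switch on genes such as Ccn1, Ccn2 and Ankrd1, while VGLL4 competes with them for TEAD. In the heart the pathway is known for limiting cardiomyocyte division. Control of YAP and TAZ is largely through phosphorylation and location, neither of which was measured by these libraries.

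Malat1 itself, at chr19:5795690-5802672 of the mm10 build, had normalized counts of 5051, 5197 and 4369 in the control libraries, against 2833, 2792 and 2732 after silencing. All 3 LNA Malat1 libraries were below every control, at 57.2% of the control mean, which matched the labels. The libraries held 4511652 to 5593823 reads on genes, as worked back from the rounding of the normalized counts. LNA Malat1 replicates 1 and 3 differed by no more than sampling noise (chi-square per gene 0.949 over 14522 genes), against 1.77 to 4.18 between control libraries, and were counted as 1 sample in every mean ± SD. Replicates 1 and 2 gave 1.01, also not beyond sampling noise, and replicates 2 and 3 gave 1.16, which was beyond it, so only the closest pair was joined. The limma and permutation p-values do not go with n = 2. They come from tests that took all 3 LNA Malat1 libraries as separate samples, unless a fit with the pair joined is named. The labels did not say whether replicates were separate cultures, so the p-values measure only the spread between these samples, which may be technical. Of 8 cardiomyocyte markers looked up, 6 were in the table, and Nppa and Sln were not. Tnnt2, Ryr2 and Actc1 were well measured, whereas Myl7 and Myl4 had 18 to 49 normalized counts and Myh6 at most 7. The summed level of these markers was 3554 to 3852 in LNA Control and 3497 to 3608 in LNA Malat1, with Ryr2 making up most of it. Of the 5 tested, Tnnt2 passed as higher (log2 fold change 0.15, limma adjusted p = 0.034) and 4 did not pass. Among those 4, the LNA Malat1 libraries lay wholly below the controls for Ryr2 and wholly above them for Myl4. Fibroblast markers (4 of 8 in the table) summed to 2928 to 3362 in LNA Control and 2685 to 2757 in LNA Malat1, with Col1a2 at 0 or 1 and Col1a1 and Postn making up most of the sum. Endothelial markers (3 of 8) summed to 22 to 31 and 36 to 37. Fewer cells of a type and less RNA per cell cannot be told apart in such bulk libraries, and the part of these marker levels in the results below was not tested.

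After Malat1 silencing, the 3 target genes Ccn1, Ccn2 and Ankrd1 rose to between 145.7% and 158.2% of control, Tead3 rose to 147.3%, the kinase gene Lats2 rose by less, and Tead1 fell to 76.0% of control. The coactivators Yap1 and Wwtr1, the kinase Lats1 and the cofactor Vgll4 did not pass the test. Thus 5 of the 10 genes rose, 1 fell and 4 did not pass at an adjusted p of 0.05 in limma, where 14.3% of all tested genes passed as higher, 14.0% as lower and 28.3% in either direction. Of the 10490 genes that averaged at least 50, a level all 10 genes reached, 12.3% passed as higher and 20.2% as lower. With a fold change of at least 1.5 also required, Ccn1 and Ccn2 were called higher, where 8.00% of all tested genes were, and 0 of the 10 were called lower, where 2.92% were. The median log2 fold change was 0.19 over the 10 genes and 0.02 over all tested genes. The libraries of the 2 groups did not overlap for 7 of the 10 genes, 5 with LNA Malat1 above and 2 below. Over all tested genes, 20.5% lay wholly above and 20.8% wholly below, 41.3% in all. The 10 genes were chosen with earlier results of these data known. The shares over all genes are therefore given for scale, and the counts beside them are no test of an excess.

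**Figure D1:**
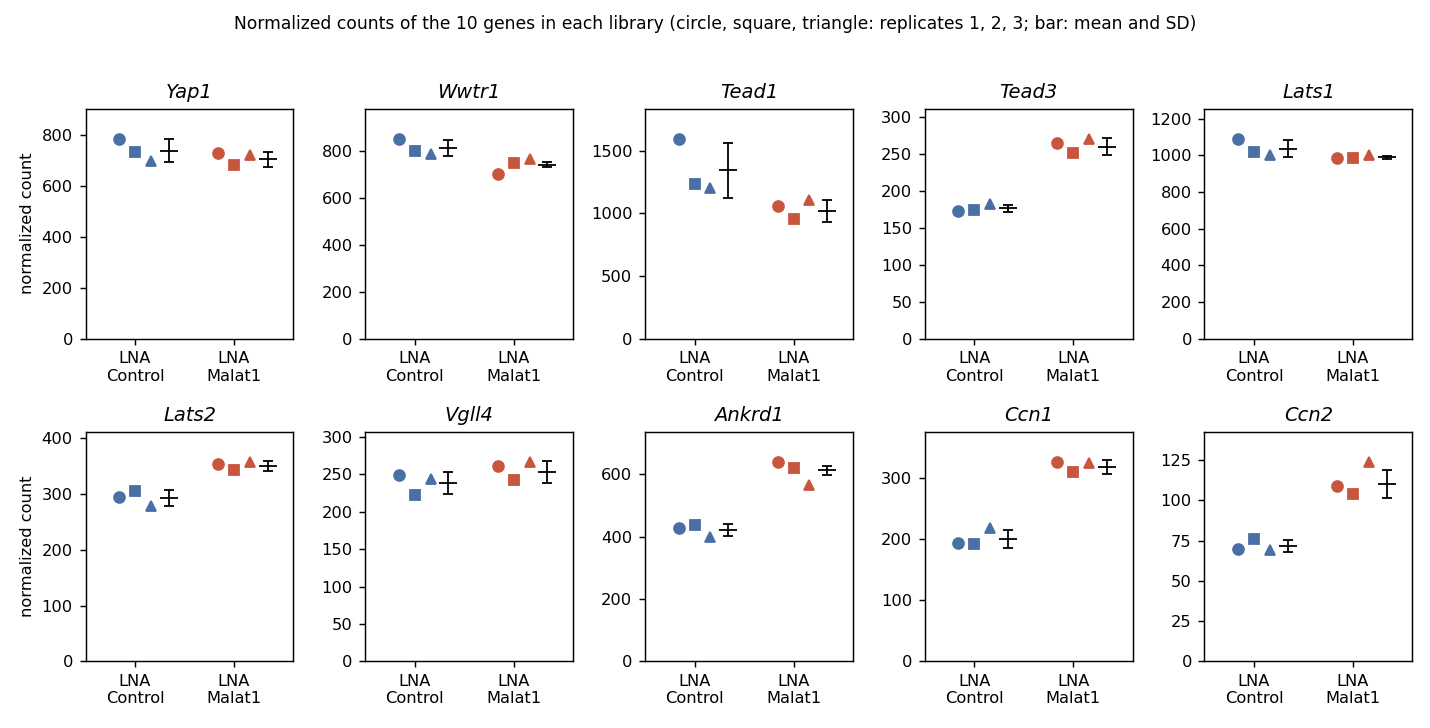
Normalized counts of the 10 genes in each library, with 1 panel per gene and axes that start at 0. Points are libraries (LNA Control in blue, LNA Malat1 in red) and bars give the mean ± SD, with LNA Malat1 replicates 1 and 3 taken as 1 sample. All LNA Malat1 points stand above the controls for Tead3, Lats2, Ankrd1, Ccn1 and Ccn2 and below them for Wwtr1 and Tead1, and the points of Yap1, Lats1 and Vgll4 overlap.

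Yap1 (ENSMUSG00000053110) encodes YAP and lies on the minus strand at chr9:7931999-8004596. The control libraries held 785, 734 and 698 normalized counts of Yap1 and the LNA Malat1 libraries 728, 684 and 723. The groups overlapped, and the LNA Malat1 libraries lay within or just under the control range. The mean went from 739 ± 43.7 (SD, n = 3) to 705 ± 29.3 (SD, n = 2). The log2 fold change on the log2(normalized count + 1) scale used throughout was -0.05, with a 95% interval from -0.18 to 0.07 (limma adjusted p = 0.52), which bounds any change of Yap1 RNA but does not show that there was none.

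Wwtr1 (ENSMUSG00000027803), on the minus strand at chr3:57455649-57575910, encodes TAZ. Normalized counts of Wwtr1 were 853, 802 and 787 in the controls and 702, 751 and 767 after silencing. The highest LNA Malat1 library stood just under the lowest control, so the groups did not overlap, but the gap was narrow. The mean went from 814 ± 34.6 (SD, n = 3) to 743 ± 11.7 (SD, n = 2). The log2 fold change was -0.14 (95% interval -0.26 to -0.02), and Wwtr1 did not pass the test over all genes (limma adjusted p = 0.083). Without LNA Control replicate 3 it did, at -0.16 and an adjusted p of 0.046.

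Tead1 (ENSMUSG00000055320), the plus-strand gene at chr7:112679318-112906807, encodes a TEAD factor that is known for driving muscle genes in the heart. For Tead1 the controls gave 1595, 1234 and 1200 normalized counts, compared with 1059, 958 and 1105 in LNA Malat1. All LNA Malat1 libraries were lower, and LNA Control replicate 1 stood well above the other controls. The mean fell from 1343 ± 219 (SD, n = 3) to 1020 ± 87.7 (SD, n = 2). The log2 fold change was -0.36 with a standard error of 0.09 (95% interval -0.56 to -0.15, limma adjusted p = 0.013). Tead1 no longer passed when genes of low level were kept in the test (adjusted p = 0.061), without LNA Malat1 replicate 1 (-0.37, adjusted p = 0.053) and without LNA Malat1 replicate 2 (-0.30, adjusted p = 0.081).

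Tead3 (ENSMUSG00000002249), on the minus strand at chr17:28331671-28350817, encodes another member of the same family that binds the same DNA core. Tead3 had 173, 175 and 182 normalized counts in the controls, against 266, 252 and 271 with the Malat1 gapmer. The controls were tightly grouped and every LNA Malat1 library lay far above them. The mean rose from 177 ± 4.73 (SD, n = 3) to 260.2 ± 11.7 (SD, n = 2), or 147.3% of control. The log2 fold change of 0.57 (standard error 0.07, 95% interval 0.43 to 0.71, limma adjusted p = 5.3e-05) corresponds to 1.49-fold, just under the 1.5-fold that a call required. It reached 1.5-fold when either LNA Control replicate 3 (0.59) or LNA Malat1 replicate 2 (0.60) was left out, as well as with quantile normalization (0.61) and equal library totals (0.61).

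As Tead1 fell and Tead3 rose, their ratio within a library moved more than either gene. The ratio of Tead3 to Tead1 normalized counts was 0.108, 0.142 and 0.152 in the controls, against 0.251, 0.263 and 0.245 after silencing. The groups did not overlap, and the mean log2 ratio was higher by 0.93 in LNA Malat1. The 2-sided exact permutation test over libraries gave p = 0.1, the smallest that 3 against 3 libraries allow, and 0.2 after adjustment over the 4 ratios computed. Leaving out each library in turn gave differences from 0.79 to 1.03. These counts are not per length, so the ratio does not say which TEAD was more abundant. On the scale of normalized count per kilobase of exon, Tead1 had a mean of 99.0 in LNA Control and 75.2 in LNA Malat1, and Tead3 had 26.3 and 38.8.

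The other TEAD genes were read from a list of 9 nuclear partners of YAP and TAZ, of which 7 were in the table and tested. Tead4 had few counts, 26, 34 and 24 in the controls, against 57, 37 and 48 after silencing, and was called higher (log2 fold change 0.73, standard error 0.21, limma adjusted p = 0.019). Tead2 had 356, 353 and 346 against 330, 316 and 312. Its LNA Malat1 libraries were all lower, but it did not pass the test (log2 fold change -0.14, adjusted p = 0.081). Tead4 did not pass with LNA Malat1 replicates 1 and 3 taken as 1 sample (adjusted p = 0.082), without LNA Malat1 replicate 1 (adjusted p = 0.11) or 3 (adjusted p = 0.074), or with quantile normalization (adjusted p = 0.097).

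Lats1 (ENSMUSG00000040021), on the plus strand at chr10:7681214-7716460, encodes a kinase that phosphorylates YAP and TAZ directly. In the controls Lats1 had 1091, 1021 and 1003 normalized counts, and in the silenced cells 987, 985 and 1005. The groups overlapped by a single pair of libraries. The mean went from 1038 ± 46.5 (SD, n = 3) to 991 ± 7.78 (SD, n = 2), and the log2 fold change of -0.06 did not pass (95% interval -0.18 to 0.05, limma adjusted p = 0.38).

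Lats2 (ENSMUSG00000021959), on the minus strand at chr14:57689662-57758388, encodes the paralogous kinase and is itself known as a gene that YAP and TEAD switch on. Libraries of the control group held 295, 305 and 278 normalized counts of Lats2, those of the silenced group 354, 343 and 358. Every LNA Malat1 library was above every control. The mean rose from 293 ± 13.7 (SD, n = 3) to 350 ± 9.19 (SD, n = 2), or 119.4% of control, and the log2 fold change was 0.26 (standard error 0.06, 95% interval 0.14 to 0.39, limma adjusted p = 0.0055). Of its exonic bases, 42.4% are also annotated to Gm49361 on the same strand, a gene with no values here, so reads over those bases may not have been counted to Lats2.

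The ratio of Lats2 to Lats1 was 0.270, 0.299 and 0.277 in the controls, against 0.359, 0.348 and 0.356 after silencing. The LNA Malat1 ratios lay close together and all above the controls. The mean log2 ratio was higher by 0.33, and the exact permutation p was 0.1, again the smallest possible, or 0.2 adjusted. By contrast the ratio of Wwtr1 to Yap1 was 1.09, 1.09 and 1.13 in the controls, against 0.964, 1.10 and 1.06 after silencing, and overlapped (difference in log2 ratio -0.08, exact permutation p = 0.3, adjusted 0.4).

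Vgll4 (ENSMUSG00000030315), on the minus strand at chr6:114860628-114969994, encodes a cofactor that occupies TEAD in place of YAP. Vgll4 was at 249, 222 and 244 normalized counts in the controls, compared with 261, 243 and 267 after silencing. The groups overlapped, with 2 of 3 LNA Malat1 libraries above all controls. The mean went from 238 ± 14.4 (SD, n = 3) to 254 ± 14.9 (SD, n = 2), and the log2 fold change of 0.11 did not pass (95% interval -0.04 to 0.26, limma adjusted p = 0.27).

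**Figure D2:**
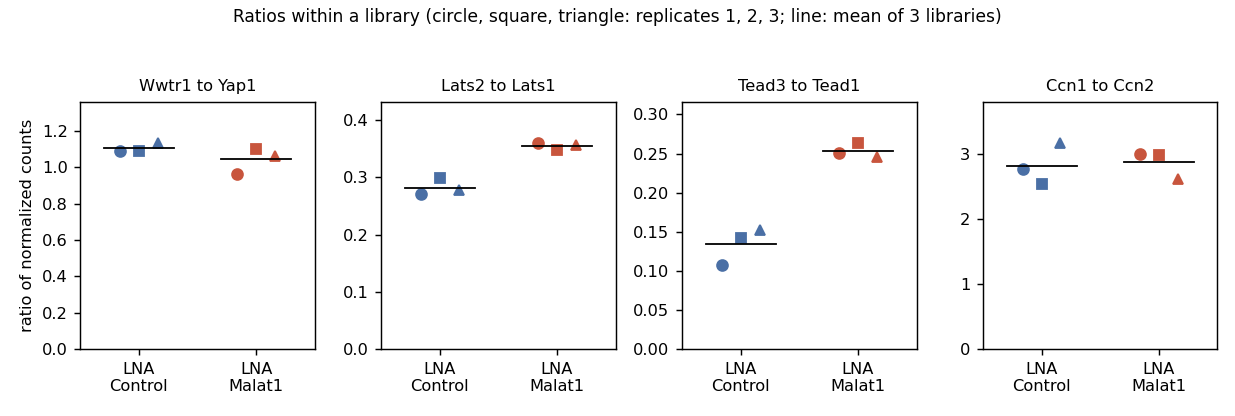
Ratio of normalized counts of 4 gene pairs within each library, on axes that start at 0. Points are libraries and lines are the mean of the 3 libraries of a group. The LNA Malat1 ratios of Lats2 to Lats1 and of Tead3 to Tead1 stand above all control ratios, whereas those of Wwtr1 to Yap1 and of Ccn1 to Ccn2 overlap.

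Among the target genes, Ccn1 (ENSMUSG00000028195) is a short gene of 3.01 kb on the minus strand at chr3:145646976-145649981 and encodes CYR61, a secreted matrix protein that binds integrins. Ccn1 was at 193, 192 and 218 normalized counts in the 3 controls, while the LNA Malat1 libraries reached 327, 310 and 325. The lowest LNA Malat1 library lay well above the highest control. The mean rose from 201 ± 14.7 (SD, n = 3) to 318 ± 11.3 (SD, n = 2), or 158.2% of control. Its log2 fold change was 0.67 with a standard error of 0.07 (95% interval 0.52 to 0.82, limma adjusted p = 1.9e-05), and it kept at least a 1.5-fold change under all 16 alternative settings that do not change that limit. Of 3087 genes measured within 1.5 times the mean level of Ccn1, the 5th to 95th percentiles of the log2 fold change ran from -0.48 to 0.37.

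Ccn2 (ENSMUSG00000019997), of the same family, lies on the plus strand at chr10:24595442-24598683 and encodes connective tissue growth factor, a secreted protein linked to fibrosis. Only 70, 76 and 69 normalized counts of Ccn2 were in the controls, against 109, 104 and 124 after silencing. The LNA Malat1 libraries were all higher, although counting error is relatively larger at this low level. The mean rose from 71.7 ± 3.79 (SD, n = 3) to 110.2 ± 8.84 (SD, n = 2), or 153.8% of control, and the log2 fold change was 0.64 (standard error 0.11, 95% interval 0.40 to 0.87, limma adjusted p = 0.00094). Without LNA Malat1 replicate 3 it passed the test but fell short of 1.5-fold (0.57, adjusted p = 0.0096). Among 2012 genes of like level the 5th to 95th percentiles ran from -0.61 to 0.73, a range that holds Ccn2. Gm15270, annotated on the opposite strand, covers 23.2% of the exonic bases of Ccn2 and had 4, 8 and 8 normalized counts in the controls, against 17, 9 and 10 after silencing. The strand setting of the counting is not given in the sources used here, and reads of this pair may not be separable.

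Ccn1 and Ccn2 were compared with each other through their ratio within a library. It was 2.76, 2.53 and 3.16 in the controls, against 3.00, 2.98 and 2.62 after silencing. The groups overlapped, and the log2 ratio differed by 0.03 (exact permutation p = 0.9, adjusted 0.9), with a range of -0.04 to 0.12 on leaving out each library.

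Of the other CCN genes, Ccn4, which encodes the WNT1-inducible protein WISP1, had 169, 144 and 174 normalized counts in the controls, against 271, 266 and 220 after silencing. All LNA Malat1 libraries were above the controls, and Ccn4 was called higher (log2 fold change 0.63, standard error 0.10, limma adjusted p = 0.00044). Ccn5 and Ccn6 had at most 4 normalized counts in any library and were not tested.

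Ankrd1 (ENSMUSG00000024803), on the minus strand at chr19:36111961-36120099, encodes the cardiac ankyrin repeat protein CARP, which sits at the sarcomere and in the nucleus of heart muscle cells and responds to stretch. The control cells had 426, 436 and 398 normalized counts of Ankrd1, and the silenced cells 640, 621 and 565. All LNA Malat1 libraries exceeded every control. The mean rose from 420.0 ± 19.7 (SD, n = 3) to 612 ± 13.1 (SD, n = 2), or 145.7% of control. The log2 fold change of 0.53 (standard error 0.06, 95% interval 0.40 to 0.67, limma adjusted p = 5.3e-05) corresponds to 1.45-fold, so that Ankrd1 passed the test without reaching 1.5-fold. Without LNA Malat1 replicate 3 (0.59) and with quantile normalization (0.59) it reached that limit. The related Ankrd23 had 4 to 11 normalized counts per library and did not pass (log2 fold change 0.28, adjusted p = 0.66), and Ankrd2 had at most 5.

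**Figure D3:**
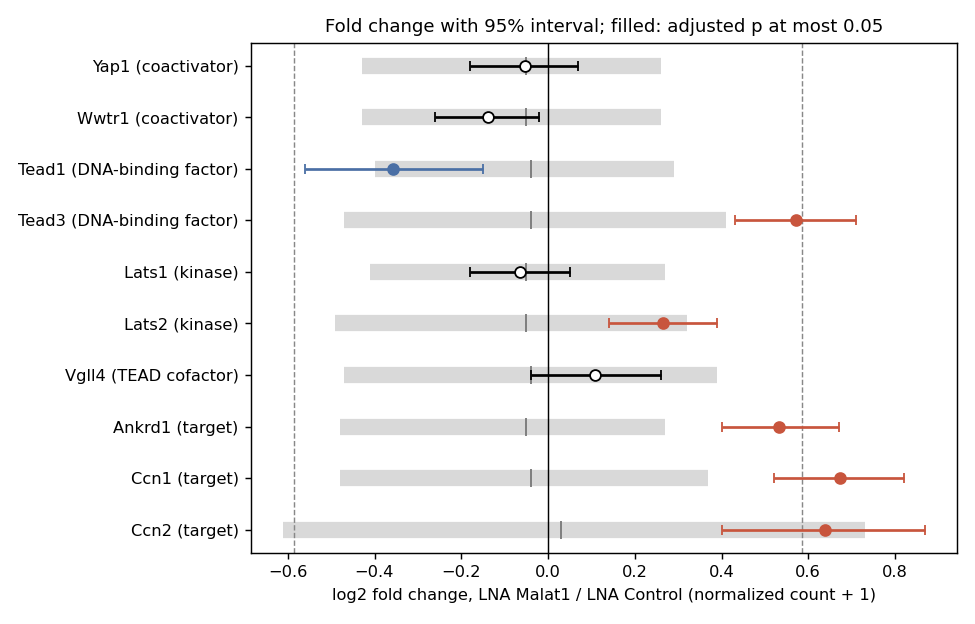
Log2 fold change of LNA Malat1 over LNA Control for each of the 10 genes with its 95% interval, filled where the limma adjusted p was at most 0.05. Grey bands span the 5th to 95th percentiles, and grey ticks the median, of genes measured within 1.5 times the gene's mean level, and dashed lines mark a 1.5-fold change. Tead3, Ankrd1 and Ccn1 lie beyond the band of like-level genes, Ccn2 at 0.64 lies inside a wider one, and Tead1 at -0.36 lies inside its own.

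Set side by side per kilobase of exon, the levels in LNA Control ran from Wwtr1 (mean 170, range 165 to 178 normalized counts per kb) to Ccn2 (25.0, range 24.1 to 26.6). Ankrd1 at 146 and Lats1 at 142 overlapped, as did Ccn1 at 99.6 and Tead1 at 99.0, Vgll4 at 44.2 and Lats2 at 42.0, and Tead3 at 26.3 and Ccn2. Wwtr1, and Yap1 at 79.8, overlapped no neighbour. The length used joins the exons of all annotated transcripts of a gene, whether or not they are used in these cells. For Lats2, 42.4% of it is shared with Gm49361, so the order is approximate. In LNA Malat1 the mean of Ankrd1 was 212 and that of Ccn1 was 158, against 155 for Wwtr1. The target Ankrd1 thus had the highest mean per kilobase of the 10 genes after silencing.

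Tead1, the gene that fell, is far longer than the target genes that rose. Ccn1, Ccn2 and Ankrd1 each span under 10 kb and Tead3 19.1 kb, but Lats2, which also rose, spans 68.7 kb. Tead1 spans 227 kb, and Wwtr1, which did not pass, spans 120262 bases. Where the mean normalized count reached 50, 36.5% of the 1103 that span 100 to 300 kb passed as lower, against 13.2% of the 2478 that span under 10 kb. As higher, 9.61% and 11.2% passed. Of the 3200 that span 30 to 100 kb, as Lats2, Yap1 and Lats1 do, 21.2% passed as lower and 13.3% as higher. The part of gene length in the values of Tead1 and Wwtr1 was not tested, and Vgll4, which spans 109 kb, did not pass in either direction.

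Of the 10 genes, 8 had at least 1 promoter window in RefSeq sequence of GRCm38.p6, which has the mm10 coordinates. Tead1, the gene that fell, and Ccn2 had none and were not searched. Each of the 12 windows holds the 250 bases before and the 50 bases from an annotated start. The windows were searched for the core hexamer that TEAD factors are known to bind, GGAATG, on both strands (CATTCC on the other). It was in 9 of the 12 windows and in 7 of the 8 genes, Lats1 being the exception, and in 14.7% of all 32851 promoter windows and 16.6% of all 27025 genes. A match is a description of the letters and not a bound site. For Ccn1, shown because it had the largest log2 fold change of the 10 genes, the 250 bases before the start, chr3:145649986-145650235 of mm10 on the minus strand, are written here 5′ to 3′ with the hexamer in capitals.
Ccn1 promoter: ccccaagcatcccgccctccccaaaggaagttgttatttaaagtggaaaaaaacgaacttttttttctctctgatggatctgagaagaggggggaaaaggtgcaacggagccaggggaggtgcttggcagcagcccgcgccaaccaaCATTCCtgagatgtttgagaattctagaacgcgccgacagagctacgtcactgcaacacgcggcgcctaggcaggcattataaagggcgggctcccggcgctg

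The other sites are given with 12 bases on either side, all from minus-strand genes and with each hexamer in capitals. The first Tead3 line of the second start holds 2 copies. They set genes that rose (Ankrd1, Tead3 and Lats2) beside genes that did not pass (Yap1, Wwtr1 and Vgll4) for the same letters.
Ankrd1 at 210 bases before the start, chr19:36120037-36120066: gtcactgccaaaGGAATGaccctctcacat
Ankrd1 at 123 bases before the start, chr19:36119950-36119979: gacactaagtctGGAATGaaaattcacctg
Tead3 first start, 182 bases before, chr17:28350970-28350999: gacgacgagcgaGGAATGgggtgcgcggga
Tead3 second start, 123 and 114 bases before, chr17:28350706-28350735: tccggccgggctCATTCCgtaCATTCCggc
Tead3 second start, at base 3 after it, chr17:28350581-28350610: aggtaagcccggGGAATGcaactcggaggc
Lats2 at base 5 after the start, chr14:57746102-57746131: cgtgacgcccgtGGAATGccaacaatgtag
Yap1 at 141 bases before the start, chr9:8004720-8004749: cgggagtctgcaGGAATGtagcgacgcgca
Wwtr1 at 136 bases before the start, chr3:57576029-57576058: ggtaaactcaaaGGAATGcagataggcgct
Vgll4 at 82 bases before the start, chr6:114969268-114969297: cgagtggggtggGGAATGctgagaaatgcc

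The hexamer was therefore in windows of genes that rose (Ccn1, Ankrd1, Tead3 and Lats2) and of genes that did not pass (Yap1, Wwtr1 and Vgll4). The second Tead3 window held 3 copies and the Ankrd1 window 2. Neither the AP-1 motif TGANTCA, searched on both strands, nor the CArG box bound by serum response factor was found in any window of the 8 genes. Those motifs were in 7.81% and 1.63% of all windows, and the absence says only that the letters are not in these windows.

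**Figure D4:**
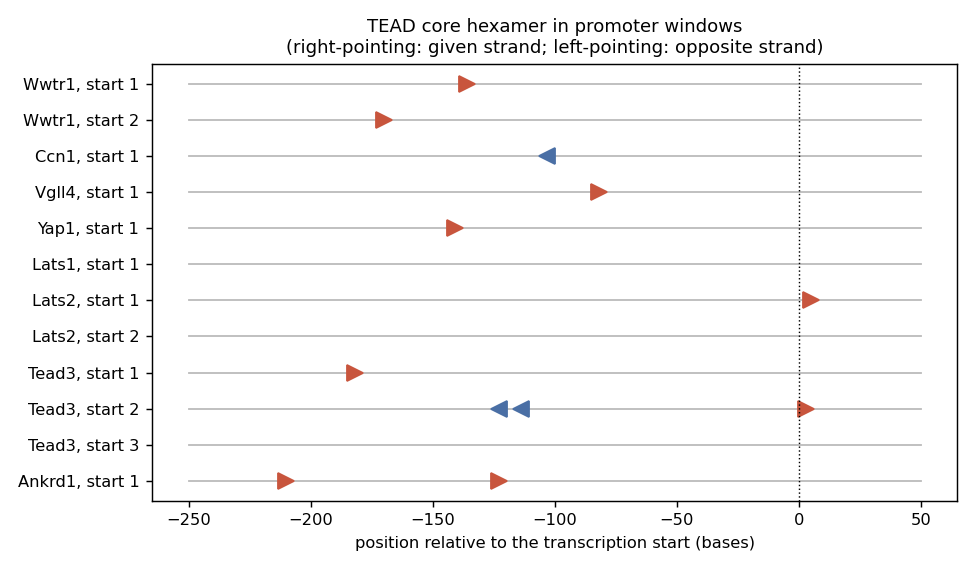
Position of the TEAD core hexamer in the 12 promoter windows of 8 of the genes, in bases from the annotated start (dotted line at 0). Right-pointing marks are the hexamer on the gene's strand and left-pointing marks the opposite strand. Marks are in 9 windows, and the windows of Lats1, of the second Lats2 start and of the third Tead3 start have none.

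The rest of the pathway was read from gene lists. Of 26 Hippo kinases and upstream regulators, 25 were tested, and 6 passed as higher, 6 as lower and 13 did not pass, against the 14.3% and 14.0% of all tested genes. Amotl1 and Ptpn14, among the 6 higher, averaged under 5 normalized counts in the controls and reached the level filter through LNA Malat1, the group where they are high. Of the 23 with a mean of at least 50, 4 passed as higher and 7 as lower, where 12.3% and 20.2% of all such genes did, and their median log2 fold change was -0.02. The number higher among the 25 was 3 without LNA Malat1 replicate 1 and 2 without replicate 2 or 3. Over all tested genes the number higher dropped too, from 2231 to 1311, 1467 and 1327 without replicates 1, 2 and 3 in turn. Fat4, an atypical cadherin that acts upstream of the cascade, had 337, 258 and 298 normalized counts in the controls, against 185, 173 and 213 after silencing. It was lower in every LNA Malat1 library and was called lower (log2 fold change -0.64, standard error 0.10, limma adjusted p = 0.00052). Dchs1, the Fat4 ligand, was listed at 0 in all LNA Control libraries and had 11, 7 and 6 normalized counts in LNA Malat1, a mean too low for the test, and is named after its values were seen.

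The paralogous LATS cofactors Mob1a and Mob1b moved apart. Mob1a had 1130, 1125 and 1073 normalized counts in the controls, against 915, 989 and 911 after silencing, and changed by -0.24 log2 units (limma adjusted p = 0.005). Mob1b had 1114, 1084 and 1177 against 1498, 1452 and 1498, and changed by 0.40 log2 units (adjusted p = 0.00013). Both genes had non-overlapping groups, in opposite directions. Both were chosen after their values were seen, as were Strn, a scaffold of the STRIPAK phosphatase complex that opposes the upstream kinases (log2 fold change -0.47, adjusted p = 2.4e-05), and the upstream kinase gene Taok2 (-0.38, adjusted p = 0.00062). The listed genes most like them did not follow. Strn3 rose (0.23, adjusted p = 0.02), and Taok1 (0.08, adjusted p = 0.52) and Taok3 (-0.01, adjusted p = 0.93) did not pass.

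Angiomotins bind YAP and hold it outside the nucleus. Amotl2, also a YAP target, had 728, 670 and 626 normalized counts in the controls, against 902, 910 and 863 after silencing. It was higher in every LNA Malat1 library (log2 fold change 0.40, standard error 0.06, limma adjusted p = 0.00036). Amotl1 had 0, 4 and 3 against 9, 10 and 13 normalized counts and entered the test only through the latter. Its fold change and adjusted p are therefore not printed, although it is among the regulators counted as higher. Amot overlapped between groups (log2 fold change -0.02, adjusted p = 0.86).

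**Figure D5:**
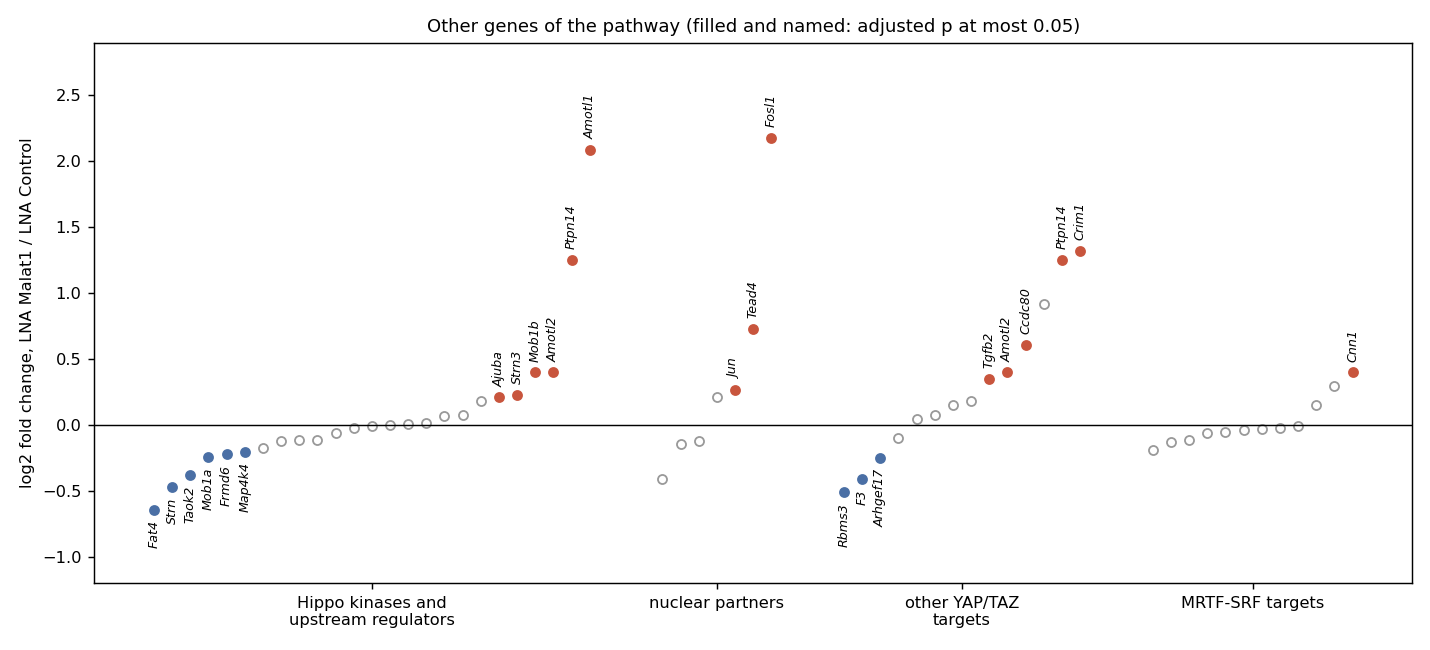
Log2 fold change of every tested gene on 4 lists of the pathway, ordered within a list and filled and named where the limma adjusted p was at most 0.05. Hippo kinases and upstream regulators divide into 6 higher and 6 lower, nuclear partners into 3 higher and 0 lower, other YAP and TAZ targets into 5 higher and 3 lower, and MRTF-SRF targets into 1 higher and 0 lower. Over all tested genes, 14.3% passed as higher and 14.0% as lower. Amotl2 and Ptpn14 are on both the first and the third list. Amotl1 and Ptpn14 are counted as higher but reached the level filter through LNA Malat1, the group where they are high.

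Of the 7 nuclear partners tested, 3 passed as higher, 0 as lower and 4 did not pass, where 14.3% and 14.0% of all tested genes did. Besides Tead4, those that rose were the AP-1 genes Fosl1 and Jun, which are known to act with TEAD at enhancers. Fosl1 had 8, 9 and 9 normalized counts in the controls, against 41, 43 and 44 after silencing (log2 fold change 2.18, limma adjusted p = 1.5e-05). Jun had 187, 215 and 229 against 264, 237 and 256 (log2 fold change 0.27, adjusted p = 0.03). Neither overlapped between groups, and both were named after their values were seen. Vgll3, another TEAD cofactor, had 3 to 10 normalized counts and did not pass (log2 fold change 0.21, adjusted p = 0.75). With LNA Malat1 replicates 1 and 3 taken as 1 sample in the fit, only Fosl1 of the 7 genes passed, as was the case without LNA Malat1 replicate 1 or 3. Over all tested genes, 1374, 1311 and 1327 rose in these fits, in place of 2231. Jun did not pass either without LNA Control replicate 1 (adjusted p = 0.08) or 2 (adjusted p = 0.068), or with genes of low level kept in the test (adjusted p = 0.067).

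Beyond Ccn1, Ccn2 and Ankrd1, 18 further genes known as targets of YAP and TAZ were listed. Of these 14 were tested, and 5 passed as higher, 3 as lower and 6 did not pass. One of the 5 was Ptpn14, which reached the level filter through LNA Malat1. Of the 12 with a mean of at least 50, 4 passed as higher and 3 as lower, against 12.3% and 20.2% of all such genes, and their median log2 fold change was 0.11. Crim1, a transmembrane regulator of growth factor signals, had 48, 66 and 54 normalized counts in the controls, against 138, 147 and 136 after silencing. This was the largest change among the tested targets that had a mean of at least 50 (log2 fold change 1.32, standard error 0.12, limma adjusted p = 1e-05). Ccdc80, a secreted matrix protein gene, had 56, 78 and 77 against 124, 107 and 91, with no overlap (log2 fold change 0.61, standard error 0.15, adjusted p = 0.0097). In the other direction were Rbms3 (742, 681 and 749 against 480, 520 and 525, log2 fold change -0.51, adjusted p = 4.9e-05) and F3, the tissue factor gene (-0.41, adjusted p = 0.001), both named after their values were seen. Arhgef17, also named after its value was seen, was the other target that fell (-0.25, adjusted p = 0.011). Without LNA Malat1 replicate 1, 3 of the 14 passed as higher in place of 5, and 1311 of all tested genes in place of 2231.

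MRTF and serum response factor share targets with YAP and also bear on Ccn1, Ccn2 and Ankrd1, so 12 genes of that pathway were read beside them. All had a mean of at least 50, and 1 passed as higher, 0 as lower and 11 did not pass, with a median log2 fold change of -0.04. At that level 12.3% of all genes passed as higher and 20.2% as lower. The one that rose was Cnn1, a smooth muscle calponin, with 115, 106 and 116 normalized counts in the controls, against 149, 148 and 148 after silencing (log2 fold change 0.40, limma adjusted p = 0.0035). It was named after its values were seen. Without LNA Control replicate 3, 2 of the 12 rose and 2 fell, where 2601 of all tested genes rose and 2354 fell. Srf, the gene of serum response factor itself, is named for that role and not by the rule, and its groups overlapped (log2 fold change -0.03).

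The genes whose profile over the 6 libraries was closest to each of the 10 were sought among 10489 others by Euclidean distance between centred log2 values. Ccn1 was closest to 1600020E01Rik (distance 0.092), Ccn2 to Rfx5 (0.10), Ankrd1 to Depdc7 (0.12), Tead3 to Ddb2 (0.083) and Lats2 to Akap8l (0.050). Tead1 was closest to Agrn (0.12), Wwtr1 to Dnajc5 (0.037), Yap1 to Rab11fip3 (0.035), Lats1 to Rbl1 (0.023) and Vgll4 to Tfcp2 (0.063). None of these was another of the 10 genes or a gene on the pathway lists.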

How the data were processed

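Total RNA of HL-1 cells was converted to libraries with a stranded total RNA kit. According to the submitters' processing notes, reads were trimmed with Trimmomatic 0.39, aligned to mm10 with STAR 2.7.7a and counted per gene with featureCounts 1.6.5. The deposited values are scores: counts that the authors normalized with DESeq2 1.30.0 size factors and rounded to whole numbers, so no count model was applied to them. Columns of the authors' own comparison hold fold changes and p-values and were not used.

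Groups followed the labels. All 6 libraries were compared with limma 3.58.1 (R 4.3.3) on log2(normalized count + 1), with a variance trend and 2-sided tests, over 15650 genes with a mean of at least 5, and adjusted by Benjamini-Hochberg. A gene rose or fell where the adjusted p did not exceed 0.05, and was called higher or lower if it also changed by at least 1.5-fold. Fold changes on this scale understate those of low genes. The script was tested on simulated data. Reads per library came from the gaps that rounding leaves in the normalized values, and limma's voom on the recovered reads was an alternative. Ratios were compared by exact permutation. Named genes were the 10 genes, Malat1, list genes of the TEAD, VGLL, CCN, MARP and angiomotin families, list genes called with a mean of at least 50, and the nearest profiles, with exceptions stated where they occur. The genes and lists were chosen with earlier results of these data known. Positions are from the GENCODE annotation of mm10.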

Additional observations from a re-analysis of the deposited data

How the results depend on the processing

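The count of the 10 genes that rose stayed at 5 under all 16 alternatives (pseudocounts of 0.1 and 5, median-of-ratios scaling, quantile normalization, equal library totals, no filter, a mean of at least 50, voom on recovered reads, merging LNA Malat1 replicates 1 and 3 into 1 sample, the replicate block, and each library left out). The number that fell was 0 with no filter (Tead1 adjusted p = 0.061, log2 fold change -0.36) and ranged from 0 to 2 on leaving out each library. It was 0 without LNA Malat1 replicate 1 or 2, where Tead1 no longer passed, and 2 without LNA Control replicate 3, where Wwtr1 passed at -0.16. Tead1 ranged from -0.43 to -0.23 and Wwtr1 from -0.16 to -0.10 across these omissions. The number called higher was 4 under quantile normalization and 0 at a fold change of at least 2. Yap1 changed sign under quantile normalization, to 0.0046 (adjusted p = 0.96), without passing either way. The cause was not tested.

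Over all genes, the number that rose was 2231 as reported, 1286 at a mean of at least 50 (10490 genes tested, of which 2120 fell), 1374 with LNA Malat1 replicates 1 and 3 as 1 sample, and 1311 to 2601 on leaving out each library. Hippo regulators that rose numbered 3 with replicates 1 and 3 as 1 sample and 2 to 6 with a library left out. Nuclear partners that rose numbered 1 (Jun) of the 3 tested at a mean of at least 50, a level that Fosl1 and Tead4 did not reach. They numbered 1 (Fosl1) with replicates 1 and 3 as 1 sample, and 1 to 3 with a library left out. Other YAP and TAZ targets that rose numbered 3 to 6 with a library left out. MRTF-SRF targets that rose numbered 2 under quantile normalization and 3 with equal totals, and 1 to 2 with a library left out, where 0 to 2 fell. The labels numbered the libraries of each group and did not say whether same-numbered ones were paired. Correlations of same-numbered libraries' deviations from their group means were 0.086, 0.182 and 0.083 over 10490 genes. Those of libraries with unlike numbers ran lower, from -0.189 to 0.046, so a shared replicate effect was not excluded. With the replicate block, 5 of the 10 genes rose and 1 fell, Tead1 at an adjusted p of 0.0039, and 2389 genes rose over all; the block changed no call of the 10 genes. Under the scalings the median log2 fold change of all genes lay between -0.00 and 0.05, and was 0.02 as reported.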
